A study of Mus musculus with 9 samples.

Results

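The genes of the mouse major histocompatibility complex (MHC) and of antigen presentation were examined in cultured periosteal progenitor cells of the mouse lower jaw, which come from the sheet of tissue around the bone. They were chosen by name. All 38 rows of the expression table whose symbol starts with H2- were taken, together with B2m, Tap1, Tap2, Tapbp, Tapbpl, Nlrc5, Ciita, Cd74, Psmb8, Psmb9, Psmb10, Psme1, Psme2 and Erap1. This gave 52 of the 21958 genes of the table, of which 43 lie on chromosome 17, which carries the mouse MHC. By role, 27 rows were class I heavy chains, 11 were the light chain and genes of peptide supply, 5 were class II chains and 5 were class II peptide editors. Nlrc5, Ciita and Cd74 stood alone in their roles, and H2-Ke6, a gene named for its place in the H2-K region, encodes no MHC chain and had 0 reads.

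RNA sequencing covered 9 libraries in 3 groups of 3. Control cells from Plagl1 fl/fl mice were taken at day 0, without osteogenic supplements, and at day 3 after culture with 100 nM dexamethasone, 50 ug/ml ascorbic acid and 5 mM b-glycerophosphate. Cells of CTSK-iCre;Plagl1 fl/fl mice, called the mutant here, were taken at day 3 after the same culture, and there was no mutant group at day 0. All groups carried the floxed Plagl1 gene, and in the mutant the Cre recombinase was under the promoter of Ctsk, a gene of periosteal progenitors and osteoclasts. Neither the strain, the age, nor whether replicate libraries came from separate animals or cultures is given in the labels, so the p-values below speak for the scatter of these 9 libraries, part of which may be technical.

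MHC class I molecules display peptides from the cell's own proteins to CD8 T cells and natural killer cells. A heavy chain, such as those of H2-K1 and H2-D1, pairs with the light chain beta-2 microglobulin in the endoplasmic reticulum, where peptides cut by the proteasome arrive through the TAP transporter. Almost all nucleated cells make class I, and interferons raise it. Class II molecules display peptides from endosomes to CD4 T cells, and are mostly made by dendritic cells, B cells and activated macrophages, under the coactivator CIITA. NLRC5, a relative of CIITA, is the coactivator of class I genes.

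Total counts per library ran from 16204327 to 19859744, and a count of 3 corresponded to 0.151 to 0.185 CPM, the depth-scaled count used throughout. Plagl1 stood at 43.9, 44.9 and 45.8 CPM in control libraries of day 3 and at 26.3, 24.2 and 24.8 CPM in those of the mutant, so transcript remained in the mutant. The 9 markers of periosteal or mesenchymal cells, among them Prrx1 and Postn, were all above 1 CPM in each group. So were all 16 macrophage markers, whose summed level was 15563 to 15960 CPM at day 0, 21721 to 23755 CPM in day 3 controls and 22864 to 25024 CPM in the mutant. The levels below come from such mixed cultures, and in bulk RNA a change in the number of cells of a type and a change in the RNA of each cell cannot be told apart.

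The class I heavy chains and the class II chains, each taken as a sum, stood far apart in level. The summed level of the 27 class I heavy chain rows was 1093, 1160 and 1059 CPM in the day 0 libraries, 4097, 3837 and 4271 CPM in day 3 control libraries, and mutant libraries had 4783, 4670 and 4373 CPM. All 6 day 3 libraries lay above all day 0 libraries. The 5 class II chain rows together had 32, 26 and 32 reads at day 0, 31, 40 and 30 reads in day 3 controls and 37, 40 and 28 reads in the mutant. That is a summed level of 1.62 ± 0.21, 1.87 ± 0.19 and 2.03 ± 0.38 CPM (mean ± SD, n = 3 each), and the 3 groups overlapped. Per length, the class II chains were at 1.61 ± 0.32 for each 1000 of class I at day 0, and at 0.497 ± 0.072 in day 3 controls and 0.484 ± 0.067 in the mutant (SD, n = 3 each).

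**Figure D1:**
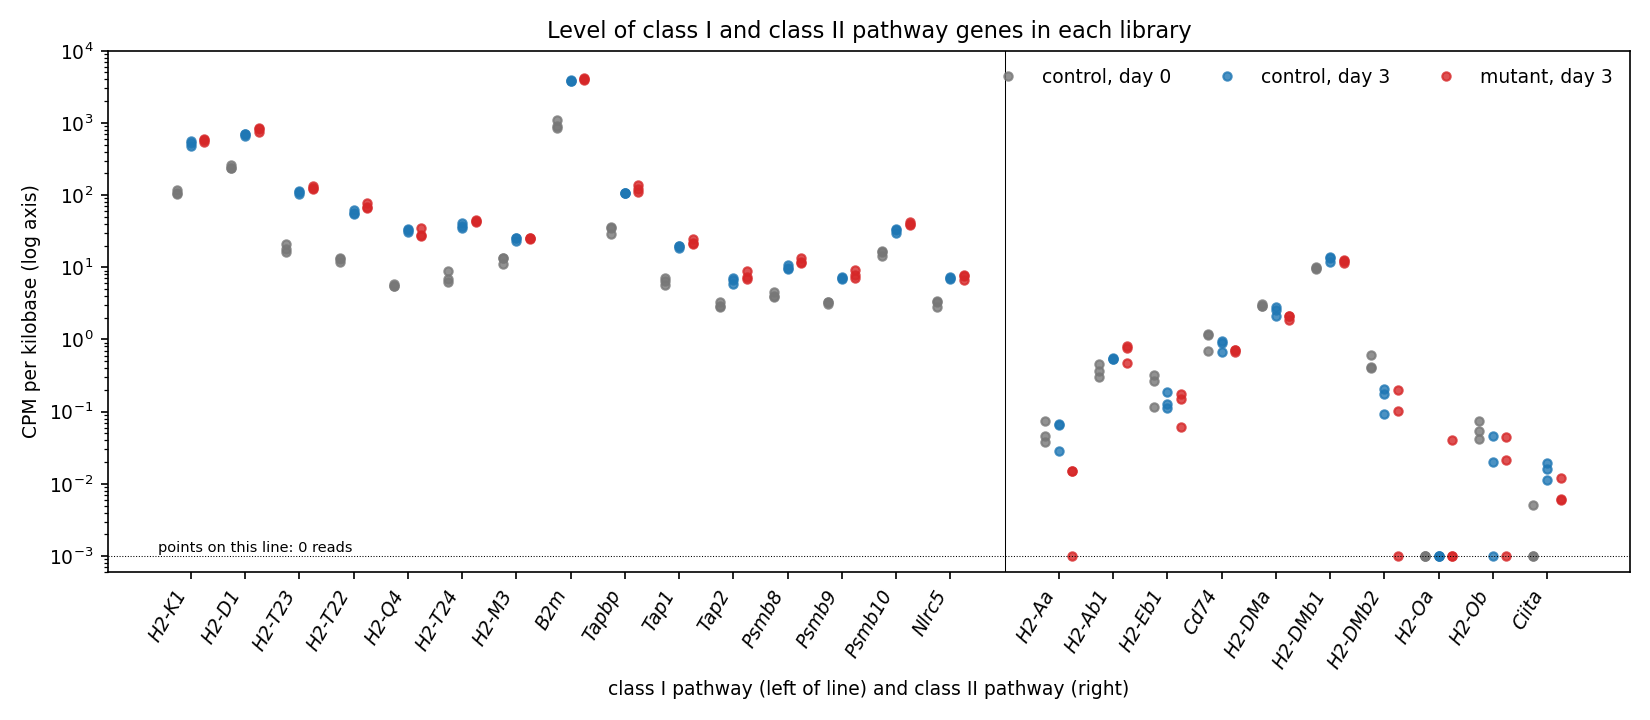
Level of 15 class I pathway genes (left) and 10 class II pathway genes (right) in each of the 9 libraries, as CPM per kilobase of gene length on a log axis; points on the dotted line are libraries with 0 reads. Each class I gene is higher in all day 3 libraries than at day 0, and the class II chains, Cd74 and Ciita lie below nearly all class I genes.

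**Figure D2:**
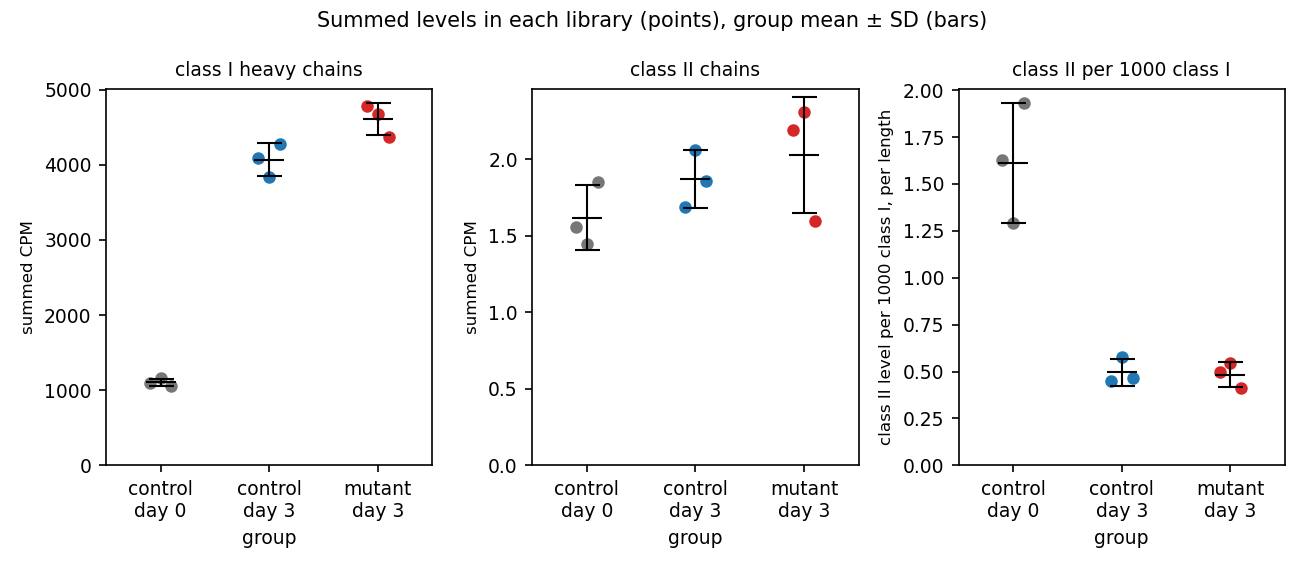
Summed CPM of the 27 class I heavy chain rows, summed CPM of the 5 class II chain rows and the per-length class II level for each 1000 of class I, by group; points are libraries and bars the mean ± SD of 3. Class I rises from a mean of 1104 to 4068 CPM on induction, while class II chains stay at 1.62 to 2.03 CPM.

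The first comparison, control day 3 against control day 0, addressed what 3 days of induction changed, and time in culture and the osteogenic supplements cannot be told apart in it. Of the 39 class I pathway members 26 had enough reads to be tested, and 25 of these were called higher and 0 lower at a Benjamini-Hochberg adjusted p below 0.05 by edgeR. Over all 13013 genes tested 65.5% were called, 33.1% higher and 32.4% lower. At an unadjusted p below 0.05 no class I pathway member was lower either, and DESeq2 gave the same counts of 25 and 0. Of the 12 class II pathway members 5 were tested, with 1 called higher and 1 lower. The median log2 change was 1.65 for the class I pathway members tested and −0.26 for the class II pathway members tested, against 0.01 for all genes. A row with few reads at day 0 could enter the test through a high day 3 level, and a row with few at day 3 through a high day 0 level. These counts thus describe the tested rows and not all members.

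H2-K1 (ENSMUSG00000061232, chromosome 17, 34214991 to 34219321, minus strand, GRCm39) and H2-D1 (ENSMUSG00000073411, chromosome 17, 35481706 to 35486475, plus strand) encode the classical heavy chains. H2-K1 had 309, 341 and 315 CPM at day 0 and 1565, 1424 and 1646 CPM in the day 3 controls. H2-D1 had 620, 671 and 604 CPM at day 0 and 1798, 1701 and 1833 CPM at day 3. Neither gene's groups overlapped. H2-K1 rose 4.8-fold (log2 fold change 2.26 ± 0.06 SE, edgeR adjusted p = 1.22e-18) and H2-D1 2.81-fold (1.49 ± 0.06 SE, adjusted p = 4.47e-16). The proportion between the pair thus changed. Per length, H2-K1 was at 0.438, 0.446 and 0.457 times the H2-D1 level in the day 0 libraries and at 0.764, 0.735 and 0.788 times in the day 3 controls. This ratio within a library does not depend on library scaling. Together both genes made up 85.8 ± 1.2% of the per-length heavy chain level at day 0 and 81.6 ± 0.42% at day 3 (SD, n = 3 each).

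Of the 25 other heavy chain rows 12 were tested and 11 were called higher, against 33.1% of all genes. Several of these 11 had a higher fold change than the classical pair. H2-T23, which encodes Qa-1, a ligand of the NKG2A receptor of natural killer cells, had 60.5, 52.4 and 46.8 CPM at day 0 and 316, 298 and 334 CPM in the day 3 controls, a 5.92-fold rise (edgeR adjusted p = 4.23e-18). H2-T22, a ligand of some gamma-delta T cell receptors, had 46.4, 44.9 and 40.7 CPM before and 193, 189 and 215 CPM after (4.52-fold, edgeR adjusted p = 6.43e-17). The day 3 level of each was several times its day 0 level, with no overlap between libraries. H2-T24 went from 16.1 ± 3.0 to 82.5 ± 7.0 CPM and H2-Q4 from 14.6 ± 0.58 to 83.8 ± 3.7 CPM (mean ± SD, n = 3). H2-M3, which presents formylated peptides, had the smallest rise of the heavy chains called, from 19.3, 16.2 and 19.2 to 33.5, 36.7 and 36.9 CPM (1.95-fold, edgeR adjusted p = 4.91e-10). H2-T10, a transcribed pseudogene in RefSeq, rose 3.91-fold, from 2.48 ± 0.46 to 9.80 ± 0.40 CPM.

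The highest fold changes belonged to Q-region genes that were almost silent at day 0. H2-Q7, which encodes Qa-2, had 0.292, 0.223 and 0.232 CPM at day 0 and 6.48, 5.05 and 6.96 CPM in day 3 controls. H2-Q5, a transcribed pseudogene in RefSeq, had 0.340, 0.278 and 0.463 CPM before and 5.55, 5.36 and 7.27 CPM after. Both went from near the level of 3 counts to well above it in each library, with log2 changes of 4.57 ± 0.29 SE for H2-Q7 and 4.04 ± 0.26 SE for H2-Q5 (edgeR adjusted p = 3.74e-12 and 4.70e-12). H2-Q6 had 4 reads over the 3 day 0 libraries and 111 over the 3 day 3 controls. H2-Q10 had 6 and 71, and H2-M2 had 20 and 164, and these 3 were also called higher. H2-Q7, H2-Q5, H2-Q6, H2-Q10 and H2-M2 all entered the test through the day 3 libraries, where they were high. Their calls and p-values carry that limit. H2-M5, with 39 and 28 reads, was the tested heavy chain that was not called (log2 change −0.43 ± 0.41 SE, edgeR adjusted p = 0.376). Of the other 13 heavy chain rows, 9 had 0 reads in all libraries, and H2-M10.2, H2-M9, H2-Q1 and H2-Bl had at most 8 reads in any group.

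Close similarity limits how far single heavy chain rows can be told apart. Of all stretches of 50 bases in the annotated transcripts of H2-T22, 34.5% also occurred in transcripts of another gene, mostly H2-T10, and the share was 36.4% for H2-Q5, 32.0% for H2-Q6 and 26.4% for H2-Q7. It was 9.63% for H2-K1 and 12.8% for H2-D1, and 0 for B2m and Nlrc5. With stretches of 100 bases the shares fell to 0.957% for H2-K1, 3.59% for H2-D1 and 12.0% for H2-Q7. How the authors' counting treated reads that match several genes is not given in any source used here, and the values of the Q-region rows, H2-T10 and H2-T22 are uncertain as single genes. For H2-K1, H2-D1, H2-M3 and H2-T24 most of the transcript is distinct.

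The promoters of the genes that moved together are shown for 4 class I genes and, beside them, 1 class II gene, from RefSeq on build GRCm38.p6. Each runs from 250 bases before to 50 bases after the annotated start, 5′ to 3′ on the gene's strand. Capitals mark matches on either strand to the core of the interferon response element (GAAA, any 2 bases, GAAA), a form 1 base shorter (GAA, any 2 bases, GAAA), 1 spelling of the kappa-B element (GGG, any 2 bases, TTTCC), the CCAAT box and TGACG, the core of the X2 box. The positions are chr2:122147437-122147736 for B2m (plus strand), chr17:34000298-34000597 for H2-K1 (minus), chr17:35262844-35263143 for H2-D1 (plus), chr17:36032652-36032951 for H2-T23 (minus) and chr17:34287774-34288073 for H2-Aa (minus).
B2m: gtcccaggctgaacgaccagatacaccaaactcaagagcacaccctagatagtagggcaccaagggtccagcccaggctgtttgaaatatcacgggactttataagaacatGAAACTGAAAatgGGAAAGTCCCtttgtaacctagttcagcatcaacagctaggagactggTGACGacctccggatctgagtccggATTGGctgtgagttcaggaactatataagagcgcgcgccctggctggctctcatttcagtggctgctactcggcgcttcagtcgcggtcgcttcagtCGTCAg
H2-K1: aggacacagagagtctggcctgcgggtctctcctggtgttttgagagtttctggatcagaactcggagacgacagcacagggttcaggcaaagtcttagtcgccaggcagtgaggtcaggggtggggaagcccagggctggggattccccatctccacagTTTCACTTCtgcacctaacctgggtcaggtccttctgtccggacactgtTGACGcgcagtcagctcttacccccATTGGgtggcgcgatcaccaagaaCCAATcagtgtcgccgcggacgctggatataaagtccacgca
H2-D1: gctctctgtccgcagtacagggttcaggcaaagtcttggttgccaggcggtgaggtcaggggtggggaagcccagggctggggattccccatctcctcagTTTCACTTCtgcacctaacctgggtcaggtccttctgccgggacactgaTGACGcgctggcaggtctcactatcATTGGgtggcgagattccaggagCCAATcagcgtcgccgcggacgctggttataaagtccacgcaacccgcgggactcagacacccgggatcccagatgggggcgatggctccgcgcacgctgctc
H2-T23: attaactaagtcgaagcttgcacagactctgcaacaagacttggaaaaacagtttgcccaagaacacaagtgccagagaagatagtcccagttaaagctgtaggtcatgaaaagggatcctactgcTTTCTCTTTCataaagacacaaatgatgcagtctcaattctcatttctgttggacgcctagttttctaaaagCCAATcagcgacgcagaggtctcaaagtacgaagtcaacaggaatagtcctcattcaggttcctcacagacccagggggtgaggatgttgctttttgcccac
H2-Aa: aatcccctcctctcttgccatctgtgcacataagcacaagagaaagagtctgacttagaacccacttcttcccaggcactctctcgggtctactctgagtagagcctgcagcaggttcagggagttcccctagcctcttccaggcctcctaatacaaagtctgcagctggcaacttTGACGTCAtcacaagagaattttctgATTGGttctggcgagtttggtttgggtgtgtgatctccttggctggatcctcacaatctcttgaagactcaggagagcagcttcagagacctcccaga

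H2-K1 and H2-D1 carry the same shorter element, TTTCACTTC on the strand shown, followed by TGACG and a pair of CCAAT boxes. Their longest identical run is 47 bases, from −141 to −95 of H2-K1 counted from the annotated start of the window shown. RefSeq gives H2-K1 a second window, chr17:34000284-34000583, with another start. The shorter element lies from −90 to −82 in the window shown and from −104 to −96 in the second. B2m carries the longer interferon response element from −139 to −130 with a kappa-B match beside it from −126 to −117, and H2-T23 carries the longer element from −124 to −115. H2-Aa has TGACG, here within TGACGTCA, and a CCAAT box from −48 to −44. Among 20 class I pathway members with a promoter window and at least 10 reads in a library, the interferon element core matched in 5, or 25%, against 3.99% of all 27025 genes with a window, and its shorter form matched in 9, or 45.0%, against 8.68%. The other motifs matched in 2 of the 20 for that spelling of the kappa-B element (1.89% of all genes), 2 for the GAS element TTCNNNGAA, which is not in capitals (9.55%), 13 for CCAAT (41.1%) and 11 for TGACG (23%). Among 8 class II pathway members with a window, both interferon element forms and that kappa-B spelling matched in 0, TTCNNNGAA and TGACG in 1 each, and CCAAT in all 8. No read filter was set on these 8, and H2-Ab1, H2-Ea, Cd74 and Ciita had no window. In the class I set H2-Q6, H2-Q7 and H2-Q10, which carry the shorter form, passed the read filter only through day 3 libraries. The shares of the 2 sets are thus not like for like. Several H2 promoters share ancestry and are not independent, and a match is a stretch of letters, not a measured binding site. Other spellings of the kappa-B element were not searched, and stretches such as the ggggattcccc of H2-K1 and H2-D1 are left in lower case. The shorter form was chosen after the other results were seen.

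The light chain and all genes of peptide supply rose with the heavy chains. B2m (ENSMUSG00000060802, chromosome 2, 121978167 to 121983564, GRCm39), which encodes the light chain, was the most abundant member, with 734, 931 and 786 CPM at day 0 and 3277, 3297 and 3432 CPM in day 3 controls. It rose 4.08-fold (log2 change 2.03 ± 0.07 SE, edgeR adjusted p = 5.51e-17), and per length it stood at 2.08, 2.5 and 2.3 times the summed heavy chains at day 0 and at 2.54, 2.73 and 2.55 times in day 3 controls, without overlap. All 11 genes of this role were called higher, against 33.1% of all genes, with log2 changes from 0.62 to 2.03.

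Within the peptide-loading complex, Tap1, a chain of the peptide transporter, had 38.5, 34.9 and 31.3 CPM at day 0 and 109, 101 and 109 CPM in day 3 controls, a 3.05-fold rise (edgeR adjusted p = 3.01e-14). Its partner Tap2 had 12.5, 10.9 and 10.6 CPM before and 25.3, 22.1 and 27.1 CPM after, a 2.17-fold rise (edgeR adjusted p = 8.03e-09). Tap1 thus rose by more than Tap2, and per length stood at 2.13 ± 0.09 times Tap2 at day 0 and 2.98 ± 0.19 times at day 3 (SD, n = 3), with no overlap. Tapbp, which encodes tapasin, the bridge between TAP and the heavy chain, had 130, 127 and 105 CPM at day 0 and 388, 384 and 393 CPM at day 3 (3.21-fold). Tapbpl, the related peptide editor TAPBPR, rose 1.73-fold, from 11.1 ± 0.52 to 19.2 ± 1.3 CPM. Erap1, which trims peptides in the endoplasmic reticulum, rose the least of this role, from 90.0, 99.0 and 87.6 to 131, 146 and 147 CPM (1.53-fold, edgeR adjusted p = 1.04e-07).

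The immunoproteasome subunits Psmb8, Psmb9 and Psmb10 take the place of the constitutive catalytic subunits Psmb5, Psmb6 and Psmb7. Psmb8 had 15.6, 13.3 and 13.4 CPM at day 0 and 33.4, 31.6 and 36.0 CPM in day 3 controls (2.38-fold). Psmb9 had 12.1, 12.1 and 11.5 CPM before and 25.9, 25.5 and 27.0 CPM after (2.19-fold), and Psmb10 28.7, 27.8 and 24.6 CPM before and 58.4, 50.4 and 56.4 CPM after (2.03-fold). All 3 were at about the same fold, with the highest edgeR adjusted p at 7.38e-10. Of the constitutive partners, Psmb5 rose 1.37-fold (edgeR adjusted p = 0.000361) and Psmb7 1.14-fold, and Psmb6 was at 0.920 times (adjusted p = 0.0569). Per length, the ratio of Psmb8 to Psmb5 went from 0.146 ± 0.012 to 0.252 ± 0.011, that of Psmb9 to Psmb6 from 0.0621 ± 0.0011 to 0.148 ± 0.0056, and that of Psmb10 to Psmb7 from 0.982 ± 0.14 to 1.74 ± 0.13 (SD, n = 3). No ratio overlapped between day 0 and day 3. The subunits of the proteasome activator PA28 alpha-beta rose too, Psme1 1.75-fold, from 57.8 ± 1.7 to 101 ± 5.0 CPM, and Psme2 1.86-fold, from 58.5 ± 3.8 to 109 ± 3.0 CPM. Psme3, the nuclear PA28 gamma, fell to 0.869 times (edgeR adjusted p = 0.00322). Of Psme2 stretches of 50 bases 28.3% also occurred in Psme2b, a near-copy, so its level is less certain.

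**Figure D3:**
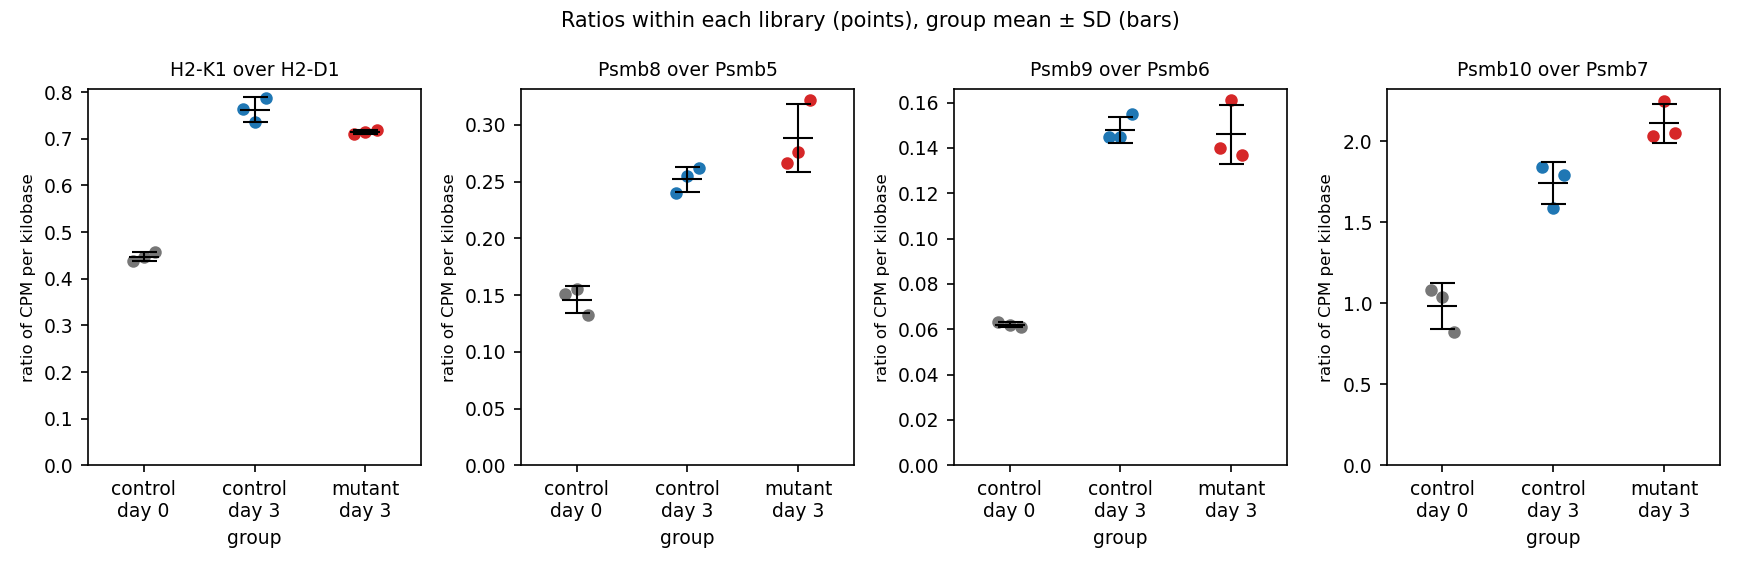
Ratios of CPM per kilobase within each library for H2-K1 over H2-D1 and for each immunoproteasome subunit over its constitutive partner, by group; points are libraries and bars the mean ± SD of 3. Every ratio is higher in all 6 day 3 libraries than in any day 0 library, and H2-K1 over H2-D1 is lower in the mutant (0.715) than in day 3 controls (0.762).

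Nlrc5 (ENSMUSG00000074151, chromosome 8, 95160984 to 95253900), the coactivator of class I genes, had 28.6, 28.2 and 24.3 CPM at day 0 and 58.5, 62.8 and 60.1 CPM in day 3 controls, with no overlap (2.23-fold, log2 change 1.16 ± 0.08 SE, edgeR adjusted p = 1.06e-11). Its partners on the class I promoter, the RFX subunits, rose by less: Rfx5 1.54-fold, Rfxap 1.35-fold and Rfxank 1.60-fold. The other listed factors of these promoters fell, the CCAAT-binding subunits Nfya, Nfyb and Nfyc to 0.737, 0.853 and 0.797 times and Creb1, which binds TGACG, to 0.823 times (edgeR adjusted p at most 0.0123). Most of the list of interferon signalling genes and inducers rose. By edgeR 27 of its 32 tested genes were called higher and 0 lower, against 33.1% and 32.4% of all genes. The median log2 change was 0.98 for this list against 0.01 for all genes. With library size alone as the scale 1 gene of this list, Rela, was called lower. The 6 with the smallest p were the feedback inhibitor Socs3 (6.72-fold), the interferon-induced GTPases Iigp1 (26.0-fold), Gbp2 (4.42-fold) and Gbp3 (8.32-fold), the chemokine Cxcl9 (260-fold) and the factor Irf7 (24-fold), with the highest edgeR adjusted p at 1.85e-15. Cxcl9 had 0.632, 0.39 and 0.174 CPM at day 0, near the level of 3 counts, and 97.1, 98.3 and 132 CPM in day 3 controls. Its fold change thus rests on few day 0 reads, 23 in all. Irf1, a transcription factor of the interferon response, rose 1.84-fold. Ifng, which encodes interferon gamma, had 0 reads in all 9 libraries, and Ifnb1, which encodes interferon beta, had 2 reads in the day 3 controls and 0 elsewhere. A count of 0 in a library allows at most 0.151 to 0.185 CPM. These genes are described beside class I, and their part in its rise was not tested.

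**Figure D4:**
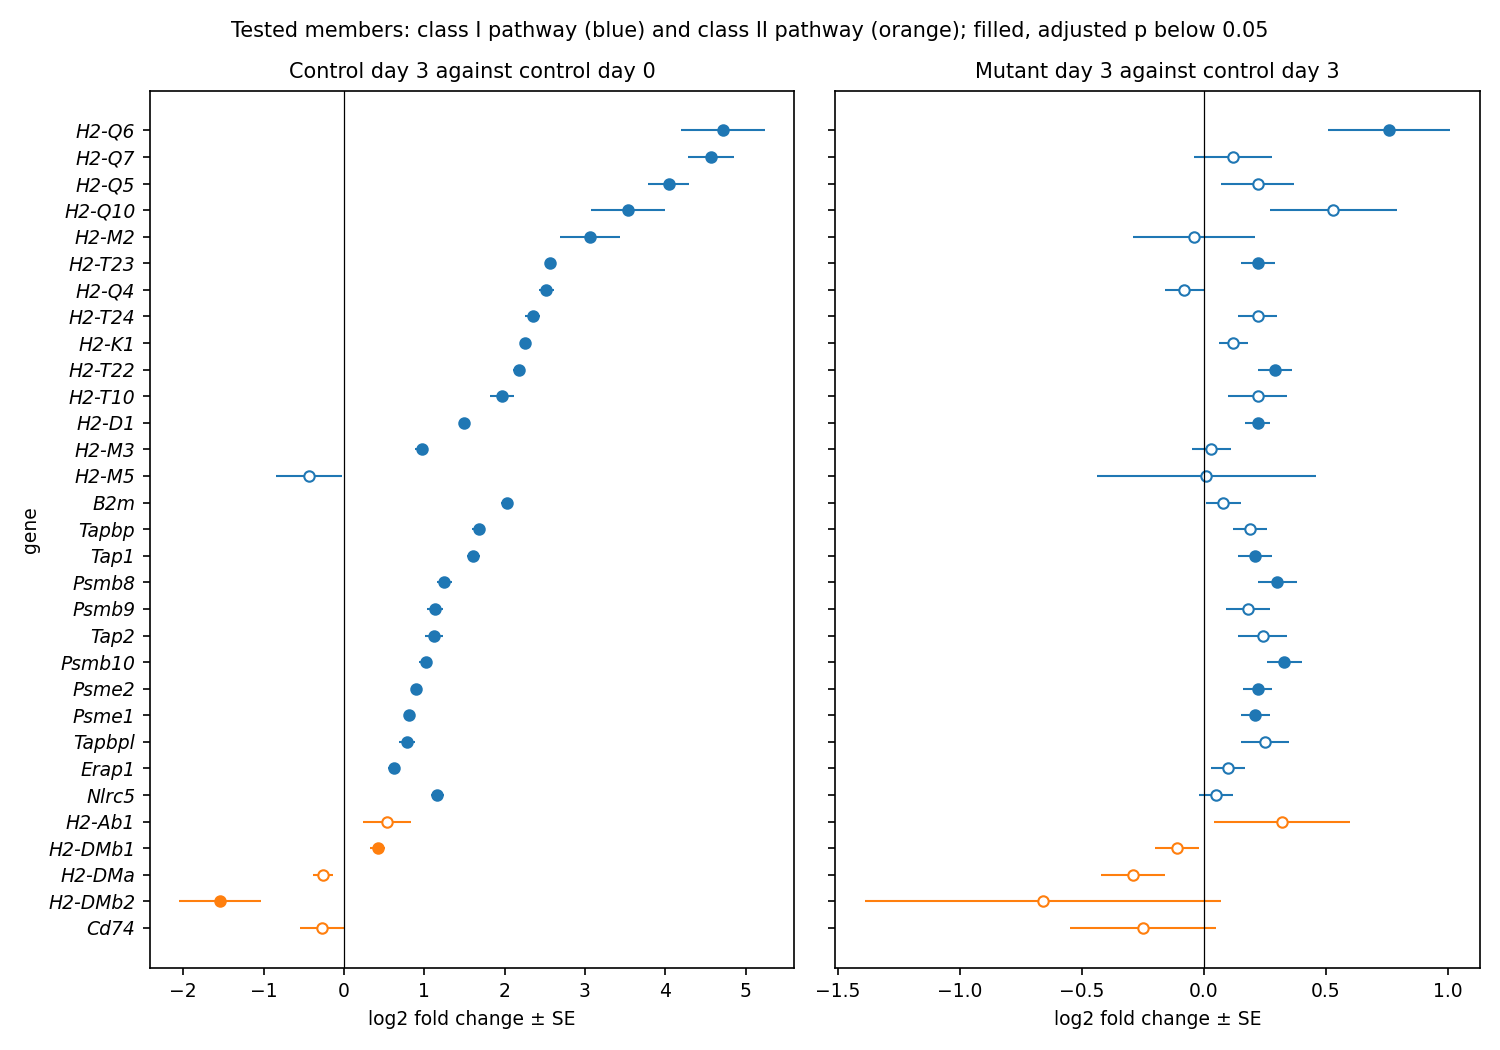
Log2 fold change ± SE of the 31 members tested, for control day 3 against control day 0 (left) and mutant day 3 against control day 3 (right, another scale); class I pathway genes are blue, class II pathway genes orange, and filled points passed an edgeR adjusted p of 0.05. On the left all class I pathway genes but H2-M5 are called higher, and the class II pathway genes lie on both sides of 0.

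Class II chains were close to the limit of detection in all groups. H2-Ab1 (ENSMUSG00000073421, chromosome 17, 34476663 to 34488393), the beta chain of the A molecule, had 0.778, 0.947 and 1.16 CPM at day 0, 1.36, 1.44 and 1.37 CPM in day 3 control libraries, and mutant libraries had 2.08, 1.96 and 1.20 CPM. Its change on induction did not pass the test (log2 change 0.54 ± 0.30 SE, edgeR adjusted p = 0.122), although the libraries did not overlap. Its partner H2-Aa had 11 reads over the 3 day 0 libraries, 11 over the day 3 controls and 2 over the mutant libraries. H2-Eb1, the beta chain of the E molecule, had 26, 15 and 13 reads in the same order. H2-Ea, a transcribed pseudogene in RefSeq, and H2-Eb2 had 0 reads in all libraries. In a fit over every gene with at least 1 read, neither H2-Aa nor H2-Eb1 was called in either comparison (smallest edgeR adjusted p = 0.204, H2-Aa in the mutant).

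Cd74, the invariant chain that guides class II through the endosomes, was as low, at 1.17, 1.95 and 2.03 CPM at day 0, 1.58, 1.49 and 1.12 CPM in day 3 control libraries, and mutant libraries had 1.13, 1.21 and 1.20 CPM. The groups overlapped, and no change passed the test (log2 change −0.27 ± 0.27 SE on induction, edgeR adjusted p = 0.405). Ciita, the coactivator of class II, had 1 read over the day 0 libraries, 8 over the day 3 controls and 4 over the mutant libraries. The ratio of day 3 to day 0 per total count was 7.61, with a 95% exact binomial counting interval of 1.02 to 338, which covers counting error only. In the fit over every gene with at least 1 read it was not called (log2 change 2.65 ± 1.38 SE, edgeR adjusted p = 0.101). At day 3 Nlrc5 had 3262 reads over the same 3 control libraries.

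Of the 5 class II peptide editors, H2-DMb1 and H2-DMa stood above the chains in level, and H2-DMb2, H2-Ob and H2-Oa did not. H2-DMb1, a chain of the DM editor, had 17.2, 15.9 and 16.2 CPM at day 0 and 22.5, 19.9 and 23.7 CPM in day 3 controls, a 1.34-fold rise (edgeR adjusted p = 0.000256). H2-DMa, its partner, had 10.7, 10.1 and 10.1 CPM before and 8.93, 7.37 and 9.57 CPM after, which did not pass (log2 change −0.26 ± 0.12 SE, adjusted p = 0.0614), but was called lower with library size alone as the scale (−0.38, adjusted p = 0.00742) and without control day 3 replicate 3 (−0.34, adjusted p = 0.036). The 2 chains of 1 molecule thus moved in unlike proportion. The per-length ratio of H2-DMa to H2-DMb1 was 0.302, 0.310 and 0.306 at day 0 and 0.193, 0.180 and 0.197 in day 3 controls. H2-DMb2, the other beta chain gene, fell from 46 reads over the day 0 libraries to 15 over the day 3 controls (log2 change −1.54 ± 0.51 SE, edgeR adjusted p = 0.0119). With 15, 19 and 12 reads at day 0 and 3, 7 and 5 in day 3 controls, it entered the test through day 0, where it was high. Its call as lower carries that limit. That call was lost without control day 0 replicate 2 (adjusted p = 0.0567) or control day 3 replicate 1 (0.0586). H2-DMb1 and H2-DMb2 share 22.7% and 24.8% of their 50-base stretches with another gene, mostly each other. Of the DO editor, H2-Ob had 17 reads at day 0, 6 in day 3 controls and 6 in the mutant, and H2-Oa had 1 read in all, in the mutant.

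Several other genes of the class II route were abundant while the chains were not. Some were low as well, such as Cd40 at a mean of 4.21 CPM at day 0 and 5.53 CPM in day 3 controls. Of 20 listed genes outside the members, all tested, 16 were called higher and 3 lower on induction, with a median log2 change of 0.40. Over all genes 33.1% were called higher and 32.4% lower, with a median log2 change of 0.01. Ctss, the cathepsin that removes the invariant chain in antigen-presenting cells, went from 1335 ± 52 to 2082 ± 23 CPM (1.56-fold), and Ctsl, another endosomal cathepsin, rose 2.67-fold. Marchf1, a ubiquitin ligase that takes class II off the cell surface, rose 2.38-fold, and the Fc receptor Fcgr1 4.60-fold with its signalling chain Fcer1g 1.79-fold. Cd83, a marker of mature dendritic cells, fell from 436 reads to 11 (log2 change −5.20 ± 0.36 SE, edgeR adjusted p = 2.24e-11), and the tetraspanin Cd9 fell to 0.541 times. Cd86, a costimulatory ligand, rose 2.92-fold, from 4.76 ± 0.62 to 13.9 ± 1.7 CPM. Fcgr1 is also one of the macrophage markers, of which 11 of 16 were called higher and 4 lower.

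Markers of the cell types that are known for class II were set beside these levels. Macrophage markers were abundant in the same libraries. Lyz2 was at 8598 ± 281 CPM and Adgre1, which encodes F4/80, at 636 ± 27 CPM at day 0. In day 3 controls they were at 12938 ± 883 and 1754 ± 51 CPM. The macrophage list did not move in 1 direction. Of its 16 genes 11 were called higher and 4 lower, against 33.1% and 32.4% of all genes. The 4 lower were Csf1r (0.676 times), Mrc1 (0.684 times), Trem2 (0.335 times) and Ptprc (0.848 times). The 8 dendritic cell markers summed to 17.1 to 20.8 CPM at day 0 and 1.37 to 3.40 CPM in day 3 controls, with Flt3 and Cd209a at 0 reads in all groups. Itgax, which encodes CD11c, made up most of that sum at day 0 and fell from 15.0 ± 1.6 to 0.591 ± 0.37 CPM. The 5 B cell markers summed to at most 1.10 CPM in any library and the 5 T cell markers to at most 4.51 CPM, with Cd3e and Cd3g at 0 reads in all groups. Neutrophil markers summed to 10.9 to 16.7 CPM at day 0 and 50.1 to 55.2 CPM in day 3 controls, osteoclast markers to 71.7 to 84.0 and 211 to 217 CPM, and endothelial markers to 3.71 to 5.30 and 5.09 to 5.72 CPM. In day 3 controls the neutrophil markers S100a9, Mpo and Ly6g had 0 reads, so that sum was S100a8 and Csf3r alone. Nearly all of the osteoclast sum was Acp5 and Ctsk, while Dcstamp had 14 reads at day 0 and 3 in day 3 controls and Ocstamp 24 and 6. The summed macrophage, neutrophil and osteoclast markers were thus higher at day 3 along with class I, and so was the periosteal sum, at 16585 to 18051 CPM before and 23684 to 24997 CPM after, with 5 of 9 genes called higher and 2 lower. Their part in the class I rise was not tested.

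The general folding machinery and the class I-like genes did not share the class I pattern in their counts. The list of the class I route outside the members held 19 genes, among them chaperones, constitutive proteasome subunits and promoter-binding factors. Of these 9 were called higher and 8 lower, with a median log2 change of −0.04. Over all genes 33.1% were called higher and 32.4% lower, with a median log2 change of 0.01. The chaperones Hspa5 and Canx fell to 0.717 and 0.750 times, while Pdia3, a thiol oxidoreductase of the loading complex, rose 1.22-fold and Calr, a lectin chaperone of the same complex, 1.22-fold. The translocon gene Sec61a1 fell to 0.807 times, while the peptide-trimming Lnpep rose 1.45-fold (edgeR adjusted p at most 7.42e-05 for all of these). Of 13 class I-like genes outside the H2 names 10 were tested, with 5 called higher and 4 lower, beside the same shares of all genes. Mill2 rose 4.45-fold, the neonatal Fc receptor gene Fcgrt 1.84-fold, the protein C receptor gene Procr 1.99-fold, the lipid-presenting Cd1d1 1.80-fold and Mr1, which presents vitamin B metabolites, 1.40-fold. Ulbp1, which encodes a stress ligand of the NKG2D receptor, fell from 58.9 ± 7.1 to 18.3 ± 1.8 CPM (0.312 times, edgeR adjusted p = 9.03e-13).

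The second comparison, mutant day 3 against control day 3, addressed what differed with the Cre transgene after the same culture. It shares the 3 day 3 control libraries with the first comparison. Of the 26 tested class I pathway members 9 were called higher and 0 lower by edgeR, against 17.7% of all genes called, 7.95% higher and 9.74% lower. At an unadjusted p below 0.05 the counts were 14 and 0, and by DESeq2 8 and 0. The differences were small, with a median log2 change of 0.22 against 0.00 for all genes. None of the 5 tested class II pathway members was called by edgeR or DESeq2, and at an unadjusted p below 0.05 there was 1, H2-DMa, which was lower. The count of 9 fell to 4 without control day 3 replicate 1, to 4 without control day 3 replicate 2 and to 5 without mutant replicate 1.

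H2-T22 and Psmb10 were called under every alternative tried. H2-T22 had 269, 233 and 228 CPM in the mutant, above its 193, 189 and 215 CPM in the day 3 controls (1.22-fold, log2 change 0.29 ± 0.07 SE, edgeR adjusted p = 0.00382). Psmb10 had 67.5, 73.0 and 66.7 CPM in the mutant, above its 58.4, 50.4 and 56.4 CPM in the controls (1.26-fold, 0.33 ± 0.07 SE, adjusted p = 0.00216). In both genes all 3 mutant libraries lay above all 3 controls. The other 7 called were H2-D1 (1.16-fold), H2-T23 (1.16-fold), H2-Q6 (1.70-fold), Psmb8 (1.23-fold), Psme1 (1.16-fold), Psme2 (1.16-fold) and Tap1 (1.16-fold), with edgeR adjusted p-values from 0.00712 to 0.0449. The call was lost without at least 1 library for each of these 7. H2-D1 lost it without control day 3 replicate 2 (adjusted p = 0.0649) or mutant replicate 1 (0.0533), and Tap1 lost it in 6 of 9 such fits. H2-Q6, with the largest fold of these, had only 111 reads over the controls and 181 over the mutant libraries. It kept its call in 4 of 9 such fits, and DESeq2 did not call it (DESeq2 adjusted p = 0.0549).

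Several members did not pass in the mutant. H2-K1 had 1750, 1705 and 1597 CPM against 1565, 1424 and 1646 CPM in the controls, and these overlapped (log2 change 0.12 ± 0.06 SE, edgeR adjusted p = 0.148), although it was called without mutant replicate 3 (0.16, adjusted p = 0.0487). B2m had 3654, 3515 and 3437 CPM in the mutant (0.08 ± 0.07 SE, adjusted p = 0.412) and Nlrc5 64.1, 56.7 and 67.3 CPM (0.05 ± 0.07 SE, adjusted p = 0.672). H2-Q4 lay at −0.08 (adjusted p = 0.503), and was called lower without mutant replicate 2 (−0.21, adjusted p = 0.0222). H2-K1 stood at 0.711, 0.715 and 0.719 times the H2-D1 level per length in the mutant, below the 0.764, 0.735 and 0.788 times of the day 3 controls. The ratio of Psmb10 to Psmb7 was 2.03, 2.25 and 2.05 in the mutant, above 1.84, 1.59 and 1.79 in the controls, while that of Psmb9 to Psmb6 overlapped. These ratios are descriptions, and 3 libraries against 3 give no exact permutation test below p = 0.1.

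The class II editors were lower or level in the mutant, without a call. H2-DMa had 7.35, 7.39 and 6.35 CPM against 8.93, 7.37 and 9.57 CPM in day 3 controls (log2 change −0.29 ± 0.13 SE, edgeR adjusted p = 0.126), and H2-DMb1 20.8, 19.5 and 21.2 against 22.5, 19.9 and 23.7 CPM. Of H2-Aa, the 2 reads of the mutant against 11 of the controls give a ratio per total count of 0.187, with a 95% exact binomial counting interval of 0.0201 to 0.857. Over all genes 7.95% were called higher and 9.74% lower in this comparison. Of the interferon list 2 of 32 genes tested were called higher, Gbp2 (1.31-fold) and Gbp7 (1.19-fold). Nfkb2 alone was called lower, a call not made by DESeq2. At an unadjusted p below 0.05 that list had 8 higher and 1 lower. The 19 tested genes of the class I route outside the members had 3 higher and 1 lower, led by Calr (1.20-fold). The 20 of the class II route had 4 and 1, led by Fcgr1 (1.28-fold). The 10 tested class I-like genes had 2 and 0, led by Procr (1.74-fold). Ctsk itself, from whose promoter the Cre is driven, was at 0.816 times the control level.

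Other features moved with genotype beside these differences. The 4 Y-linked genes Ddx3y, Uty, Kdm5d and Eif2s3y summed to 261 to 282 CPM in the day 3 controls and 91.6 to 108 CPM in the mutant, all 4 called lower, and genotype and this difference cannot be told apart. Of the 16 macrophage markers 8 were called higher and 0 lower in the mutant, against 7.95% and 9.74% of all genes. They were led by Fcgr1 (1.28-fold), Cd68 (1.19-fold) and Laptm5 (1.16-fold). The median log2 change of the macrophage markers was 0.17, against 0.00 for all genes. The periosteal list had 2 of 9 genes higher and 4 lower, its sum 16483 to 18213 CPM in the mutant against 23684 to 24997 CPM in controls. Its 2 most abundant genes were lower, Col1a1 at 4613 against 7806 CPM and Col1a2 at 5261 against 8529 CPM (means). Prrx1 (0.795 times) and Postn (0.859 times) were also lower, while Thy1 (1.70-fold) and Ly6a (1.45-fold) were higher. Pdgfra, Pdgfrb and Twist1 were not called. The endothelial sum was 8.12 to 8.86 CPM in the mutant against 5.09 to 5.72 CPM in controls. Of its 4 tested genes 2 were called higher and 0 lower. These were Cdh5 and Emcn, which had only 28 and 27 reads over the day 3 controls. Kdr, the most abundant of them in controls, was at 0.875 times and was not called, nor was Pecam1. Dendritic, B and T cell markers had 0 calls among their 4 tested genes by edgeR, neutrophil markers 1 higher, and osteoclast markers 1 higher and 1 lower. In the lists named here and in the interferon and class I-like lists, each count of 0 was also 0 at an unadjusted p below 0.05 and by DESeq2. The part of these features in the class I differences was not tested.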

How the data were processed

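The tools named per the submitters' processing notes are cutadapt, HISAT2 and HTSeq, and the build is GRCm39. Their versions, the annotation release, the strand setting and the handling of reads with several matches are not given there. The deposited table holds raw read counts per gene and library and FPKM values. The deposited FPKM equalled the count per kilobase of listed gene length scaled to the library's total, within 0.1%, for all genes with at least 50 reads, and was used only for this check. In the copy used here 1 line was empty and was left out.

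Counts were filtered with filterByExpr (minimum count 10), scaled by TMM and tested by quasi-likelihood, with 1 mean per group over all 9 libraries, in edgeR 4.0.16 under R 4.3.3, and p-values were Benjamini-Hochberg adjusted over all 13013 genes. Genes with an adjusted p below 0.05 were called. The TMM factors ran from 0.960 to 1.07. Standard errors are the log2 fold change over the root of F. CPM are TMM-scaled, and per-length levels are CPM per kilobase of listed gene length. The test was tried on simulated data with known changes. Alternatives were RLE and upper-quartile factors, library size alone, other filters on low counts, DESeq2 1.42.0, fits of 2 groups, a replicate block and leaving out each library. Stretches shared between transcripts were counted in GENCODE M21 transcripts. RefSeq promoter windows were matched by symbol for 40 of the 52 members. Intervals and limits from counts cover counting error only.

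The members, lists and tests were chosen with earlier results of these data known. All members were named or counted, with values per library for those fixed by role and for H2- rows of at least 5 CPM, and up to 6 genes of each further list with the smallest p were named, along with genes a statement turned on, which were chosen after their values were seen.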

Additional observations from a re-analysis of the deposited data

How the results depend on the processing

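On induction, 26 of 27 member calls held under every alternative tried, all but that of H2-DMb2, and the class I pathway count was 25 higher and 0 lower in each. With library size alone as the scale, the median log2 change of all genes moved from 0.01 to −0.11, the class I heavy chain sum at day 0 from 1104 to 1173 CPM, class II pathway members called lower from 1 to 2 and interferon genes called lower from 0 to 1. With a filter of at least 1 CPM in 3 libraries 0 class II pathway members were called lower, since H2-DMb2 was not tested, and leaving out 1 library gave 0 to 2.

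In the mutant comparison 2 of 9 member calls held under every alternative, and no log2 change of a member was reversed with a call. Leaving out 1 library at a time gave 543 to 1344 genes called higher over all genes against 1034, with 543 without control day 3 replicate 2, and 4 to 12 class I pathway members higher and 0 to 1 lower. It gave 0 to 2 called lower in the class I route list, 2 to 5 higher and 1 to 3 lower in the class II route list, 1 to 2 higher in the class I-like list, and 1 to 5 higher and 0 to 2 lower in the interferon list. For the class I route list 0 were called lower by DESeq2, in the fit of 2 groups and with the replicate block. With every gene of at least 1 read, 2 of the class II route list were lower. For the interferon list, the number higher was 1 with library size alone, 5 with every gene of at least 1 read, 4 in the fit of 2 groups and 1 with the replicate block, and the number lower was 0 with RLE factors, upper-quartile factors, DESeq2, 2 groups and the block. The cause of these shifts was not tested.

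The labels state no pairing of libraries by replicate number, and none was seen. Same-numbered libraries had correlations of their deviations from the group means of 0.0284, 0.00606 and −0.000589 in the first comparison and −0.0179, −0.0774 and 0.0149 in the second. Between libraries of unlike number they ran from −0.0265 to 0.0197 in the first and from −0.105 to 0.117 in the second. With 3 libraries a group such values cannot exclude a pairing. With the replicate block 25 class I pathway members were called higher on induction, and 8 in the mutant against 9, where Tap1 was lost (adjusted p = 0.0618). The block gave 4248 genes higher and 4142 lower on induction, and 883 and 1167 in the mutant. Depth limits the class II chains, whose libraries held 26 to 40 reads in all.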
